A study of Mus musculus with 1699 samples.

Results

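Ebf1, Ebf2 and Ebf3, the members of the Early B-cell factor family chosen here by name, were followed by stage, by Pitx3 genotype, by 3 neuronal marker genes and in combination within single cells. They are 3 of the 39468 gene entries measured in each cell, and each has 1 entry. Ventral midbrain cells carrying GFP were sorted from Pitx3eGFP mice and sequenced one cell at a time with Smart-seq2, and 1699 cells were available. Pitx3eGFP/wt mice, which keep 1 Pitx3 copy and carry eGFP in place of the other, gave cells at the embryonic days E13.5, E15.5 and E18.5 and at the postnatal days P1, P7 and P90. Pitx3eGFP/eGFP mice, in which eGFP replaces both copies of Pitx3, gave cells at E13.5 and P1. The labels call the allele Pitx3tm1Mli, heterozygote or homozygote, and all groups share the C57BL/6NRj background. Cells were sorted by their GFP, which the Pitx3 locus drives, so the sort was aimed at cells that use this locus. Several animals were used for each stage but no cell is tied to an animal, so each stage and genotype counted as 1 sample and nothing below was tested. Shares of cells are given with exact Clopper-Pearson 95% intervals and differences between shares with Newcombe 95% intervals. These intervals cover counting error only, not the spread between animals.

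Early B-cell factors are transcription factors that bind DNA as dimers through a zinc-binding domain and a helix-loop-helix. Ebf1 is best known for committing blood precursors to the B-cell lineage, and the family was also found as regulators of olfactory neurons. In the developing nervous system the genes are used mostly in young neurons that have left the cell cycle, where they are known for roles in migration and differentiation. Ebf2 is also known as a determinant of brown fat cells, and Ebf3 for neurodevelopmental disease in humans.

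The 3 genes are closely related, so the reads had to be able to tell them apart before cells with several members could be counted. The coding sequences, taken from the GENCODE vM21 transcripts of the mouse build GRCm38 (mm10), were 1779 bases long in Ebf1, 1728 in Ebf2 and 1791 in Ebf3. The stretch of 60 bases in which the members are most alike lies near the start of the coding sequence and is shown here because reads of the members are most alike there. Capitals mark the bases that differ from Ebf1, and each stretch is written 5′ to 3′ on the coding strand.
Ebf1: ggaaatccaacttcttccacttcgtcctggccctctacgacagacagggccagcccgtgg
Ebf2: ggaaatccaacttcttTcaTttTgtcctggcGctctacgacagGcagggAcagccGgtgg
Ebf3: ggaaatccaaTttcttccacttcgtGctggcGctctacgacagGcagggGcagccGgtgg
Ebf2 differed from Ebf1 at 7 of these 60 bases and Ebf3 at 6. The Ebf1 stretch lies in exon 2 at chr11:44620467-44620526 on the plus strand. The Ebf2 stretch lies in exon 3 at chr14:67237502-67237561 on the plus strand. The Ebf3 stretch lies in exon 2 at chr7:137313562-137313621 on the minus strand. Over the whole coding sequence Ebf1 and Ebf2 were 73.7% identical, Ebf1 and Ebf3 79.6% and Ebf2 and Ebf3 76%. The longest identical run was 17 bases for Ebf1 and Ebf2, 24 for Ebf1 and Ebf3 and 23 for Ebf2 and Ebf3, all shorter than a read of 43 bases. Of the windows of 43 bases in their transcripts, 9827 in Ebf1, 6924 in Ebf2 and 9378 in Ebf3, 0 were shared with another member of the family or with Ebf4.

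The genes themselves are large and lie on different chromosomes, Ebf1 at chr11:44617317-45008091 on the plus strand, Ebf2 at chr14:67233292-67430918 on the plus strand and Ebf3 at chr7:137193673-137314445 on the minus strand. Smart-seq2 does not keep the strand, so reads from genes that overlap a member on the other strand cannot be told from those of the member where their exons meet. Ebf1 overlaps the antisense gene Gm12158, whose own entry held 1.15% as many reads as that of Ebf1. The 5 genes that overlap Ebf2 held between 0.0271% and 0.445% as many reads as Ebf2, and the 2 that overlap Ebf3 have no entry of their own.

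After cells with few reads or genes were left out, and with them oligodendrocyte-like cells, 46 of them at P1, 93 at P7, 23 in Pitx3eGFP/eGFP at P1 and 1 at each embryonic age of Pitx3eGFP/wt, 1484 cells were kept, 1146 of Pitx3eGFP/wt and 338 of Pitx3eGFP/eGFP mice. The kept cells held between 100007 and 8634201 reads, and the medians per group ran from 753256 in Pitx3eGFP/eGFP cells at E13.5 to 2354720 in Pitx3eGFP/wt cells of the same age. The kept cells carried the neuronal markers in between 90% and 100% of cells of a group and the dopaminergic markers in between 73.2% and 92.1%. A read of eGFP was present in 1332 of the 1484 kept cells. Levels are in RPKM, reads scaled for the length of the gene model and the depth of the cell, and a gene was counted as on over an RPKM of 10. At the median depth this level stood for 36.5 reads of Ebf1, 50.4 of Ebf2 and 65.5 of Ebf3, but in a cell of 100000 reads for only 2.24, 3.10 and 4.02. In the oligodendrocyte-like cells 7.27% were over this level for Ebf1, 3.64% for Ebf2 and 0.606% for Ebf3. They serve as a background of other sorted cells, but nearly all of them came from P1 and P7 and 0 from P90.

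Each member was on in about as many cells as it was off at E13.5, and from there the members parted. In Pitx3eGFP/wt embryos Ebf1 was on in 51.8% (43.2 to 60.4) of E13.5 cells, with 72 cells on and 67 off, in 29.3% (21.9 to 37.6) of the 140 E15.5 cells and in 42.2% (35.1 to 49.7) of the E18.5 cells, of which there were 92 and 95 on the 2 plates. After birth it was on in 39.8% (33.9 to 45.9) of the 269 P1 cells, 45.3% (34.6 to 56.4) of the 86 P7 cells and 32.3% (27.3 to 37.7) of the P90 cells, of which the 4 plates held 94, 92, 93 and 46. Ebf1 thus stayed on in a sizeable share of cells at every age, with its lowest share at E15.5, where the interval overlapped that of P90. Ebf2 was on in 58.3% (49.6 to 66.6) of E13.5, 36.4% (28.5 to 45) of E15.5 and 16% (11.1 to 22.1) of E18.5 cells, and after birth in 17.5% (13.1 to 22.5) of P1, 19.8% (12 to 29.7) of P7 and 37.9% (32.6 to 43.4) of P90 cells. Ebf3 was on in 54.7% (46 to 63.1), 40% (31.8 to 48.6), 23% (17.2 to 29.7), 21.6% (16.8 to 27), 20.9% (12.9 to 31) and 33.5% (28.4 to 39) at the same ages. Both Ebf2 and Ebf3 had a trough from E18.5 to P7 and were on in more cells again at P90.

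**Figure D1:**
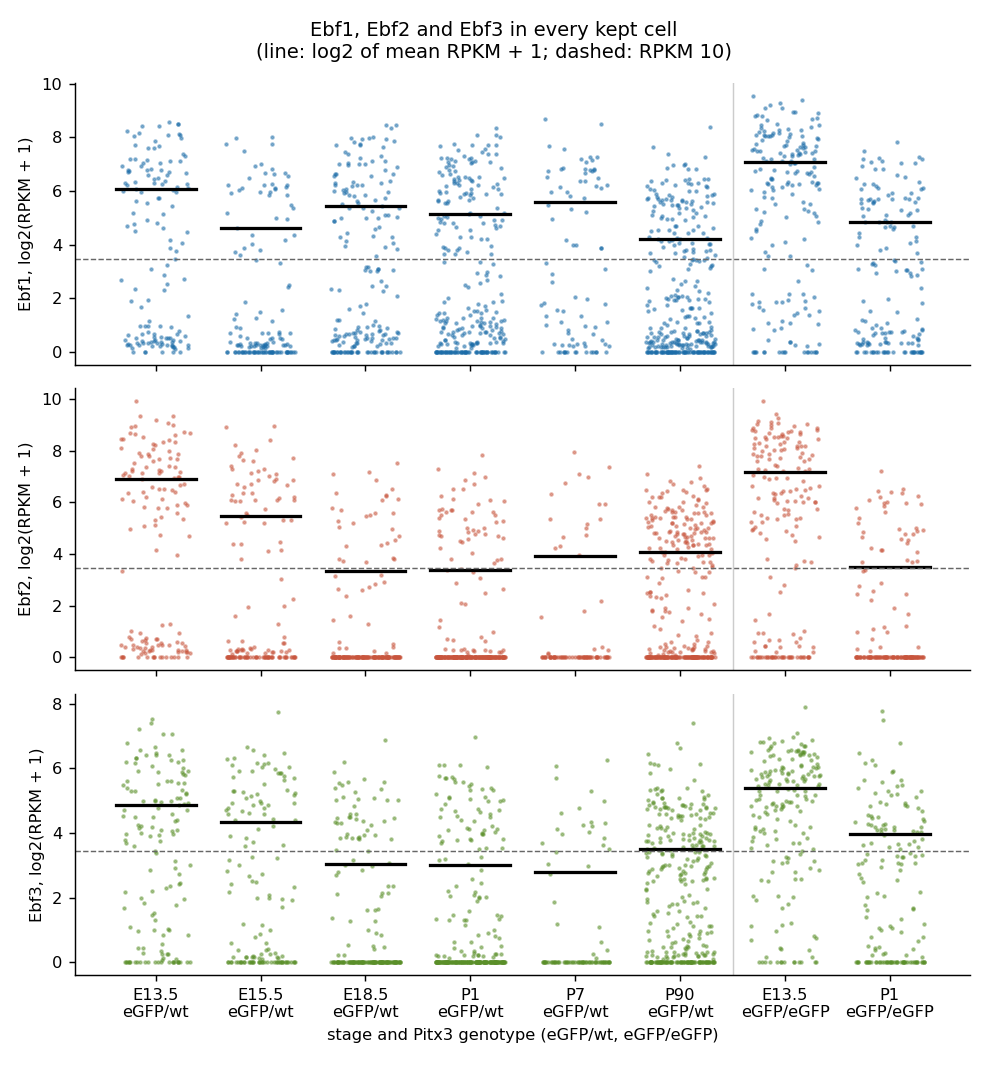
Each point is a kept cell, with its level as log2(RPKM + 1) on the vertical axis and its stage and Pitx3 genotype on the horizontal axis. The black lines mark the log2 of the mean RPKM plus 1 and the dashed line an RPKM of 10. For each gene cells lie both at 0 and far over the dashed line at every age, and the highest Ebf2 cells are lower at P90 (up to 167.9 RPKM) than at E13.5 (up to 960.3 RPKM).

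The levels behind these shares were split into cells at or near 0 and cells with much RNA. At E13.5 Ebf1 ranged from 0 over a median of 15.9 to 382.5 RPKM, Ebf2 from 0 over 53.4 to 960.3 RPKM and Ebf3 from 0 over 14.7 to 180.9 RPKM. At P90 Ebf1 ranged from 0 over a median of 1.11 to 336.4 RPKM, Ebf2 from 0 over 0.350 to 167.9 RPKM and Ebf3 from 0 over 2.87 to 166.3 RPKM. The highest Ebf2 cell at E13.5 thus held several times the level of the highest at P90, whereas for Ebf1 and Ebf3 the highest cells of both ages were closer. The mean level of Ebf1 was 65.6 RPKM in E13.5, 23.4 in E15.5 and 42.9 in E18.5 cells, and after birth 34.2 in P1, 46.8 in P7 and 17.3 in P90 cells. The mean level of Ebf2 was 120.3, 43.8, 9.01, 9.38, 14.3 and 15.9 RPKM at these ages. The mean level of Ebf3 was 28.1, 19.1, 7.17, 7.12, 5.97 and 10.5 RPKM. Of the 3 genes Ebf2 had the highest mean level at E13.5 and E15.5 and Ebf1 from E18.5 on.

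**Figure D2:**
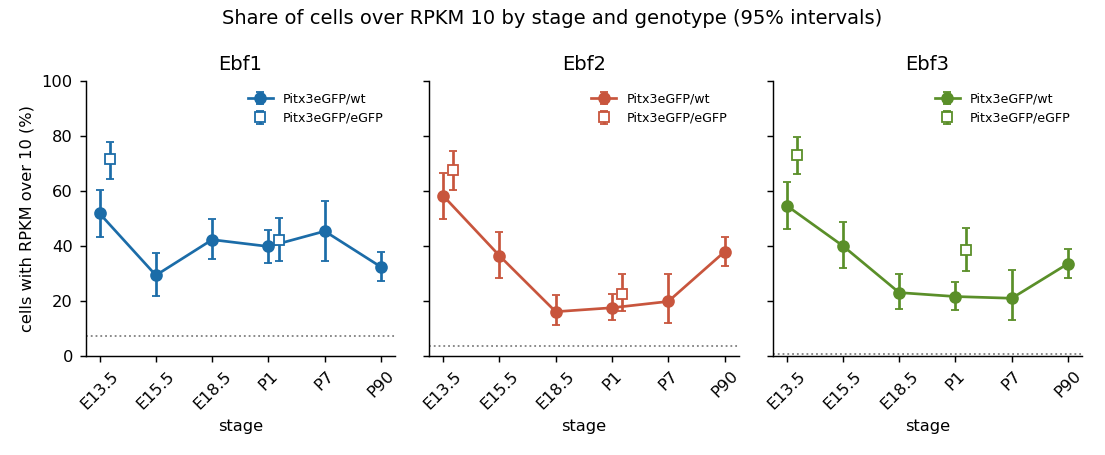
The share of kept cells with an RPKM over 10 (percent, vertical axis) is plotted by stage for Pitx3eGFP/wt (filled circles, joined) and Pitx3eGFP/eGFP cells (open squares), with 95% Clopper-Pearson intervals. The dotted line is the share in the oligodendrocyte-like cells, nearly all of which came from P1 and P7. Ebf2 and Ebf3 are lowest from E18.5 to P7, whereas Ebf1 has its lowest share, 29.3%, at E15.5.

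From E13.5 to E18.5 the share of cells on was lower by 42.2 percentage points (32 to 51.3) for Ebf2 and by 31.7 points (21.1 to 41.4) for Ebf3, but by 9.55 points (−1.37 to 20.2) for Ebf1, whose interval held 0. The mean level, compared with 1 RPKM added to both means, was 12.1-fold lower for Ebf2, 3.56-fold lower for Ebf3 and 1.52-fold lower for Ebf1. Ebf2 and Ebf3 were past 2-fold, beside 23.7% of the 15199 entries with a mean of at least 1 RPKM in either group. Over the step from E15.5 to E18.5 Ebf1 went the other way from its relatives. Its difference, E15.5 minus E18.5, was −12.96 points (−22.9 to −2.42), whereas Ebf2 was lower at E18.5 by 20.4 points (10.8 to 29.8) and Ebf3 by 17 points (6.87 to 26.9). By the paper's account the Pitx3eGFP/wt cells of E18.5 held added spike-in RNA and those of E13.5 and E15.5 did not. The median reads were 2082325 at E15.5 and 1140978 at E18.5. Age and spike-in thus cannot be told apart between these earlier ages and E18.5. No interval of the differences between E18.5 and P1 or between P1 and P7 excluded 0 for any member. These intervals cover counting error only and each age is 1 sample, so they do not show whether neighbouring ages over this span were alike.

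Between P1 and P90 Ebf2 was on in 20.4 points (13.2 to 27.1) more cells and Ebf3 in 12 points (4.75 to 18.9) more, whereas Ebf1 differed by −7.47 points (−15.2 to 0.265). In mean level Ebf2 was 1.63-fold and Ebf3 1.41-fold higher at P90 and Ebf1 1.92-fold lower, so 0 of the members were past 2-fold, beside 25% of 15788 entries. The share of Ebf2 at P90 thus came back by more than its mean level, with many cells at a modest level. Against E13.5 all 3 members were past 2-fold at P90, Ebf1 3.63-fold lower, Ebf2 7.19-fold lower and Ebf3 2.53-fold lower, beside 40.8% of 15518 entries, so that passing 2-fold over this span was common. Thinning every cell to 100000 reads left these shares nearly the same, with 20.3 points for Ebf1, 21.4 for Ebf2 and 21 for Ebf3 between E13.5 and P90. The dissociation kit changed between the embryonic, the early postnatal and the P90 tissue, so age and kit cannot be told apart.

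The cells of P90 came from 4 plates, and the members were uneven among them. Ebf1 was on in 38.3% of 94 cells on plate P90_1, 41.3% of 92 on P90_2, 21.5% of 93 on P90_4 and 23.9% of 46 on P90_5. Ebf2 ran the other way over the same plates, with 25.5%, 29.3%, 48.4% and 58.7%. Ebf3 was on in 25.5%, 28.3%, 36.6% and 54.3%. At E18.5 the 2 plates were closer, with 46.7% and 37.9% for Ebf1, 14.1% and 17.9% for Ebf2 and 25% and 21.1% for Ebf3. On every P90 plate the Ebf2 share was above the 17.5% of P1. That P1 share joined cells with and without spike-in, of which 22.3% (14.4 to 32.1) and 14.9% (9.94 to 21) were on. The intervals of P90_1 (17.1 to 35.6) and P90_2 (20.3 to 39.8) overlapped that of the P1 cells with spike-in. Those of P90_4 (37.9 to 59) and P90_5 (43.2 to 73) lay above it. The plates also differed in makeup, with 27.7%, 22.8%, 11.8% and 17.4% of their cells in the Slc6a3 class and 13.8%, 9.78%, 21.5% and 32.6% in the Gad2 class defined below, and the part of this in the shares was not tested.

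Next, the members were set against the markers by which the study named its neuron groups, Nxph4, which encodes neurexophilin 4, Gad2, which encodes an enzyme of GABA synthesis, and Slc6a3, which encodes the dopamine transporter DAT. A Pitx3eGFP/wt cell was put in a class when it was over an RPKM of 150 for exactly 1 of these genes, and in a class of its own when it was over for none. The study used this level to name clusters, and here it was applied to single cells. Cells were joined into an early (E13.5 and E15.5), a perinatal (E18.5, P1 and P7) and a P90 block.

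Among early cells, the members were common in the Nxph4 and Gad2 classes and scarce in the Slc6a3 class. In the 60 cells of the Nxph4 class Ebf1 was on in 61.7% (48.2 to 73.9), Ebf2 in 86.7% (75.4 to 94.1) and Ebf3 in 65% (51.6 to 76.9). In the 22 cells of the Gad2 class Ebf1 was on in 59.1% (36.4 to 79.3), Ebf2 in 81.8% (59.7 to 94.8) and Ebf3 in 86.4% (65.1 to 97.1). In the 63 cells of the Slc6a3 class Ebf1 was on in 17.5% (9.05 to 29.1), Ebf2 in 7.94% (2.63 to 17.6) and Ebf3 in 25.4% (15.3 to 37.9). Ebf2 parted the classes most, with 78.7 points (64.4 to 86.6) between the Nxph4 and Slc6a3 classes and 73.9 points (51.5 to 85.7) between the Gad2 and Slc6a3 classes. The median level of Ebf2 was 151.6 RPKM in the Nxph4 class and 125.4 in the Gad2 class, and its mean in the Slc6a3 class was 5.14 RPKM. All 3 members were past 2-fold in the Nxph4 against the Slc6a3 class, beside 25.2% of 14703 entries, and all 3 in the Gad2 against the Slc6a3 class, beside 32.2% of 14414. Both comparisons share the cells of the Slc6a3 class. The folds for the Nxph4 class were 5.88 for Ebf1, 34.3 for Ebf2 and 3.04 for Ebf3, and those for the Gad2 class were 8.40, 31.3 and 4.52. The block joins 2 ages, and the Gad2 fold of Ebf1 and the Nxph4 fold of Ebf3 came from the first. The mean level of Ebf1 was 188.5 RPKM in the Gad2 class beside 11.7 in the Slc6a3 class at E13.5, with 12 and 25 cells, but 10.8 beside 12.1 RPKM at E15.5, with 10 and 38 cells. The mean level of Ebf3 was 45.6 RPKM in the Nxph4 beside 5.70 in the Slc6a3 class at E13.5, but 14.8 beside 13.9 RPKM at E15.5, where 40.9% and 28.9% of cells were on. Ebf2 was higher in the Gad2 class at both ages, at 235.4 beside 9.87 RPKM and 137.6 beside 2.03 RPKM.

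**Figure D3:**
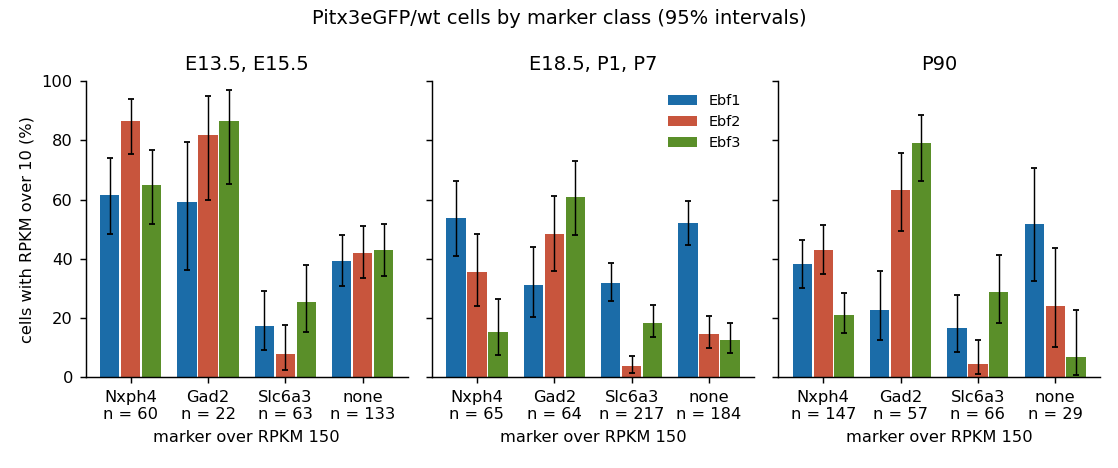
Bars give the share of Pitx3eGFP/wt cells with an RPKM over 10 (percent) for Ebf1, Ebf2 and Ebf3 in each marker class and block, with 95% Clopper-Pearson intervals, and n is the number of cells. Ebf2 is at 7.94%, 3.69% and 4.55% in the Slc6a3 class of the 3 blocks, whereas Ebf3 leads in the Gad2 class of each block.

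In the perinatal block the members no longer marked the same classes. In the Nxph4 class of 65 cells Ebf1 was on in 53.8% (41 to 66.3), Ebf2 in 35.4% (23.9 to 48.2) and Ebf3 in 15.4% (7.63 to 26.5). In the Gad2 class of 64 cells the order was turned, with Ebf1 in 31.2% (20.2 to 44.1), Ebf2 in 48.4% (35.8 to 61.3) and Ebf3 in 60.9% (47.9 to 72.9). In the Slc6a3 class of 217 cells Ebf1 was on in 31.8% (25.7 to 38.4), Ebf2 in 3.69% (1.61 to 7.13) and Ebf3 in 18.4% (13.5 to 24.2). Ebf3 was on in 45.6 points (29.3 to 58.5) more cells of the Gad2 than of the Nxph4 class, and Ebf1 differed the other way, by −22.6 points (−37.9 to −5.53). Against the Slc6a3 class, Ebf2 alone of the members was past 2-fold in the Nxph4 class, at 7.24-fold, beside 15.8% of 15546 entries. Ebf2 at 14.9-fold and Ebf3 at 3.47-fold were past it in the Gad2 class, beside 13.7% of 15290. The cells over 150 for none of the markers held Ebf1 in 52.2% (44.7 to 59.6), 96 cells on and 88 off, Ebf2 in 14.7% (9.90 to 20.6) and Ebf3 in 12.5% (8.09 to 18.2).

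The P90 block had the same layout for Ebf2 and Ebf3. In the Nxph4 class Ebf1 was on in 38.1% (30.2 to 46.5), 56 cells on and 91 off, Ebf2 in 42.9% (34.7 to 51.3) and Ebf3 in 21.1% (14.8 to 28.6). In the 57 cells of the Gad2 class Ebf1 was on in 22.8% (12.7 to 35.8), Ebf2 in 63.2% (49.3 to 75.6) and Ebf3 in 78.9% (66.1 to 88.6). In the 66 cells of the Slc6a3 class Ebf1 was on in 16.7% (8.62 to 27.9), Ebf2 in 4.55% (0.947 to 12.7) and Ebf3 in 28.8% (18.3 to 41.3). Ebf3 was thus most often on in the adult Gad2 class, by 57.9 points (43.6 to 68.2) over the Nxph4 class. Over the Slc6a3 class the difference was 50.2 points (33.1 to 63), beside 58.6 points (43.4 to 70.3) for Ebf2. Of all P90 cells on for Ebf3, 41.3% (31.9 to 51.1) were in the Gad2 class. The level of Ebf3 told the Gad2 and Slc6a3 classes apart less well than its share. Its means were 22.1 and 11.8 RPKM and its medians 20.1 and 1.78 RPKM. Most Gad2 cells were at a modest Ebf3 level, while 1 cell of the Slc6a3 class reached 166.3 RPKM. With cells thinned to 100000 reads, where an RPKM of 10 stands for 4.02 reads of Ebf3, the difference in share was 30.9 points (13.4 to 45.9). Over an RPKM of 50 in place of 10 it was 0.957 points for Ebf3, and that of Ebf2 between the Nxph4 and Slc6a3 classes was 5.97 points. In mean level Ebf1 at 2.48-fold and Ebf2 at 5.39-fold were past 2-fold in the Nxph4 against the Slc6a3 class, beside 16.1% of 14951 entries, and Ebf2 at 12.4-fold alone in the Gad2 against the Slc6a3 class, beside 17.7% of 14884. Another 29 cells at P90 were over 150 for none of the markers and 26 for several, and the latter held Ebf1 in 38.5%, Ebf2 in 53.8% and Ebf3 in 46.2%.

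The differences between classes were also taken within plates, where the labels name them. Ebf2 was on in more cells of the Nxph4 than of the Slc6a3 class on all 7 heterozygote plates, by 28.6 points on P90_1 to 83.7 points on P1_1. Ebf2 was also on in more cells of the Gad2 than of the Slc6a3 class on all 7, by 28.6 points on P90_2 to 70 points on P90_4. Ebf3 was on in more cells of the Gad2 than of the Slc6a3 class on all 7, by 24.2 points on P90_5 to 69.2 points on P90_1. For Ebf1 the difference between the Nxph4 and Slc6a3 classes ran from −8.33 points on P90_5, with 18 and 8 cells, to 37.8 points on 18_2. Several of these classes held fewer than 10 cells on a plate.

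Followed within a class, the members of the Nxph4 class were lower in the perinatal than in the early block for Ebf2, by 51.3 points (35 to 63.6), and for Ebf3, by 49.6 points (33.1 to 62.4), but for Ebf1 by 7.82 points (−9.32 to 24.3). In the Gad2 class Ebf1 was lower by 27.8 points (4.14 to 48.1), Ebf2 by 33.4 points (9.78 to 49.4) and Ebf3 by 25.4 points (2.86 to 40.6). The early block was uneven for Ebf1, which was on in 83.3% of 12 Gad2 cells at E13.5 and 30% of 10 at E15.5. In the Nxph4 class Ebf1 was on in 73.7% of 38 cells at E13.5, 40.9% of 22 at E15.5 and 62.5% of 16 at E18.5. In the Slc6a3 class Ebf1 was instead on in more cells perinatally, with a difference of early minus perinatal of −14.3 points (−24.2 to −1.74), and in fewer again at P90, by −15.1 points (−24.7 to −2.89, P90 minus perinatal). Without cells over 150 for Vip, a split described below and chosen after the values were seen, these differences were −8.18 points (−18.1 to 4.31) and −8.97 points (−18.8 to 3.70), with intervals that held 0. Ebf2 stayed scarce there throughout, with intervals of all 3 differences between blocks that held 0. Within the Nxph4 class the P90 and perinatal cells differed by 7.47 points (−6.91 to 20.7) for Ebf2 and 5.70 points (−6.45 to 15.7) for Ebf3. Within the Gad2 class they differed by 14.7 points (−2.94 to 31.1) for Ebf2 and 18 points (1.55 to 33) for Ebf3. For Ebf1 the P90 cells of the Nxph4 class differed from the perinatal ones by −15.75 points (−29.5 to −1.30). The Slc6a3 class, where Ebf2 was seldom on, made up 39.8% of cells at P1 and 11.8% to 27.7% of the P90 plates, so the makeup of the sorted cells moved together with the higher Ebf2 share at P90, and its part in that share was not tested.

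The perinatal cells without a marker, of which 96 were on for Ebf1, led to a further split by Vip, the gene of vasoactive intestinal peptide, and by Aldh1a1, which encodes a retinaldehyde dehydrogenase of some dopamine neurons. This split was chosen after the values were seen. Of the perinatal cells without a marker, 120 were over 150 for Th, a gene of dopamine synthesis, and 80 of these, 66.7%, were on for Ebf1. Of the 64 not over 150 for Th, 16 were on, or 25%. Of the 58 perinatal cells over 150 for Vip, 93.1% were on for Ebf1, 6.90% for Ebf2 and 20.7% for Ebf3. Of the 484 other perinatal cells, 35.3% were on for Ebf1, 18.6% for Ebf2 and 22.1% for Ebf3. The Vip cells thus held Ebf1 more often than the other perinatal cells but not Ebf2 or Ebf3, with Ebf1 at a mean level of 130.9 RPKM beside 28.2 RPKM in the others, and 35 of the 36 Vip cells without another marker and 19 of the 22 in the Slc6a3 class were on. At P90 only 10 cells were over 150 for Vip, and 30% of them were on for Ebf1, beside 32.4% of the others, although the mean Ebf1 level was higher in the Vip cells, at 62.6 beside 15.9 RPKM. Over all cells of a block, those with Aldh1a1 were less often on for Ebf2. Of the perinatal cells over 150 for Aldh1a1, 8.24% were on for Ebf2, beside 21.9% of the others, and at P90 the shares were 19.4% of 62 and 42.2% of 263. Most perinatal cells with Aldh1a1 lay in the Slc6a3 class, and among perinatal cells without a marker the shares went the other way, with 20% of 50 cells with Aldh1a1 on for Ebf2 beside 12.7% of those without. Ebf1 differed by 2.85 points (−5.83 to 11.6) between the perinatal cells with and without Aldh1a1, but among those without a marker it was on in 70% (55.4 to 82.1) of the 50 cells with Aldh1a1 and in 45.5% (36.9 to 54.4) of those without. In the Slc6a3 class, 0 of 15 early and 0 of 35 P90 cells with Aldh1a1 were on for Ebf2, and 3 perinatal cells.

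Cells that used all 3 members at once were most frequent at the earliest age. At E13.5 43 Pitx3eGFP/wt cells, 30.9% (23.4 to 39.3), were on for all 3, and 34 cells, 24.5%, were on for none. At E15.5 11 of 140 cells, 7.86% (3.99 to 13.6), were on for all 3, at E18.5 3 cells, 1.60%, and after birth 3 of 269 at P1 and 2 of 86 at P7. At P90 16 cells, 4.92% (2.84 to 7.87), were on for all 3. From E13.5 to P1 the share was lower by 29.8 points (22.4 to 38), and from P1 to P90 it was higher by 3.81 points (0.987 to 6.82). Ebf2 and Ebf3 were each on in fewer cells at P1 than at E13.5 or P90, and the part of this in these differences was not tested. The commonest pattern among cells with any member was all 3 at E13.5, Ebf2 and Ebf3 without Ebf1 at E15.5, with 22 cells, and Ebf1 alone from E18.5 on, with 51 such cells at E18.5, then 70 at P1, 27 at P7, and 52 in the adult at P90. At P90 49 cells were on for Ebf2 alone and 36 for Ebf3 alone, 39 were on for Ebf2 and Ebf3 together, and 92 carried 2 or more members.

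**Figure D4:**
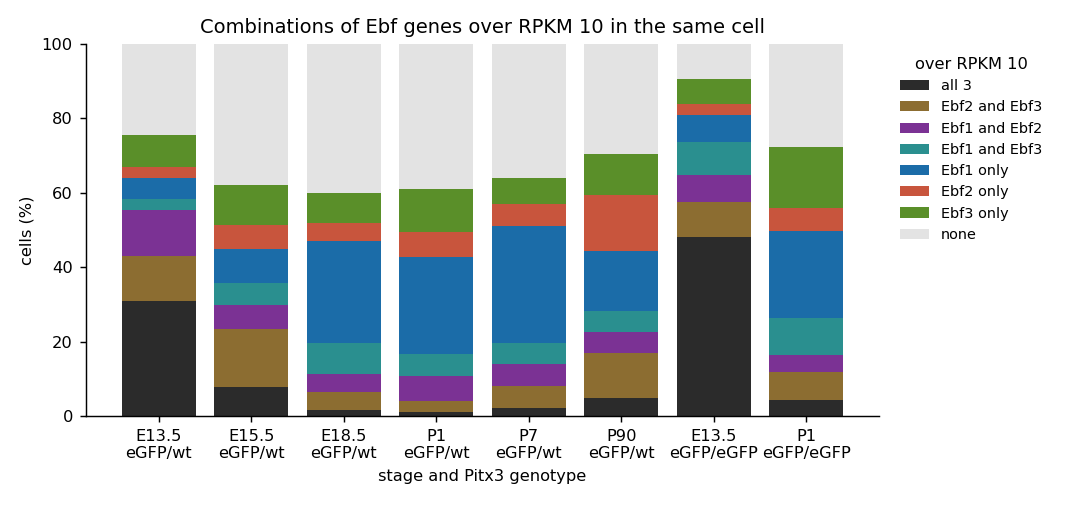
Stacked bars give the percent of kept cells in each combination of Ebf1, Ebf2 and Ebf3 over an RPKM of 10, by stage and Pitx3 genotype. The black segment, all 3 members, is 30.9% at E13.5 in Pitx3eGFP/wt and 48% in Pitx3eGFP/eGFP cells, and the Ebf1 segment is the widest coloured one at E18.5, P1 and P7.

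The pairs differed in how long they kept company. At E13.5 Ebf2 was on in 83.3% of the 72 cells with Ebf1 and in 31.3% of the 67 without, a difference of 52 points (36.3 to 64). At E15.5 this difference was 17.5 points (0.00680 to 34.4), and at the later ages E18.5, P1, P7 and P90 it was −1.48, 3.58, −3.33 and −6.67 points, with intervals that held 0. Ebf1 and Ebf2 thus went together at E13.5, and from E18.5 on no link was detectable over an RPKM of 10 at this number of cells. Over an RPKM of 1 the difference at P90 was −14.4 points (−24.8 to −3.56), an interval below 0. This value joins the P90 plates, over which the shares of Ebf1 and Ebf2 ran in opposite directions. Within plates, over an RPKM of 10, it ran from −17.05 points (−37.2 to 7.41) on P90_4 to 8.14 points (−9.40 to 26.7) on P90_1. Ebf3 was on in 74.1% of the 81 cells with Ebf2 and in 27.6% of the 58 without at E13.5, a difference of 46.5 points (30.1 to 59.4). For this pair the difference was 38.9 points (21.9 to 53) at E15.5, 20.3 points (3.36 to 38.8) at E18.5, 2.23 points (−9.18 to 16.9) at P1, 25.2 points (3.08 to 49) at P7 and 18 points (7.29 to 28.4) at P90. Ebf1 and Ebf3 differed by 22 points (5.43 to 37) at E13.5 and by 8.97 points (−8.38 to 26.3) at E15.5. As a description over the cells of E13.5, which share their sort, Pearson's r of log2(RPKM + 1) was 0.58 for Ebf1 and Ebf2, 0.34 for Ebf1 and Ebf3 and 0.56 for Ebf2 and Ebf3. Cells with and without Ebf1 at this age held medians of 2283818 and 2367579 reads.

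In the Nxph4 and Gad2 classes of P90 the difference between cells with and without Ebf2 was smaller than over all cells, which was not tested. In the P90 Nxph4 class, with 63 cells on and 84 off for Ebf2, Ebf3 was on in 4.76 points (−8.33 to 18.5) more of the cells with Ebf2 than without, and in the 57 cells of the Gad2 class in 4.37 points (−16.1 to 27.8) more, against 18 points over all cells. In the Slc6a3 class Ebf3 was on in 2 of the 3 cells with Ebf2 and 17 of the 63 without, a difference of 39.7 points (−7.77 to 68.4). On the 4 P90 plates the difference over all cells ran from 2.36 points on P90_4 to 28.1 points on P90_2. With thinned cells it was 6.71 points (−3.57 to 17.3) at P90. Over an RPKM of 50 the difference over all cells was 22.7 points at E13.5 and 3.73 points at P90. Among the early cells without a marker, with 52 cells on and 81 off for Ebf1, Ebf3 went with Ebf2 by 46.3 points (29.5 to 59.5) and Ebf2 with Ebf1 by 35.1 points (17.8 to 49.7). In the marked early classes these differences had wide intervals that held 0. In the early Nxph4 class Ebf2 differed with Ebf1 by 6.58 points (−10.8 to 27.4) and Ebf3 with Ebf2 by 17.3 points (−14.2 to 47.9). In the early Gad2 class the same differences were 25.6 points (−7.66 to 57.5) and −16.7 points (−39.2 to 33.5), the latter of opposite sign with only 4 cells off for Ebf2. In the early Slc6a3 class they were 12.4 points (−3.95 to 42.2) and 37.6 points (−1.32 to 67.2). In the early Nxph4 class 21 of 60 cells and in the early Gad2 class 10 of 22 were on for all 3, against 1 of 63 in the early Slc6a3 class.

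For the comparison of genotypes the replaced gene was read first. The mean Pitx3 level was 418.7 RPKM in Pitx3eGFP/wt and 18.8 in Pitx3eGFP/eGFP cells at E13.5, and 105.3 and 8.40 RPKM at P1, the direction that the labels give. Pitx3 was still over an RPKM of 10 in 61.5% of Pitx3eGFP/eGFP cells at E13.5 and 30.8% at P1, beside 87.8% and 65.1% of Pitx3eGFP/wt cells. eGFP went the other way, from 325.3 to 725.7 RPKM at E13.5. The dopamine classes differed as well. At E13.5 18% of Pitx3eGFP/wt but 0.559% of Pitx3eGFP/eGFP cells were in the Slc6a3 class, and 64.7% and 43% were over 150 for Th, which encodes the rate-limiting enzyme of dopamine synthesis. At P1 39.8% and 10.1% were in the Slc6a3 class.

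At E13.5 Ebf1 and Ebf3 were on in more Pitx3eGFP/eGFP cells, while the interval for Ebf2 held 0. Ebf1 was on in 71.5% (64.3 to 78) of Pitx3eGFP/eGFP cells, of which the 3 plates held 87, 22 and 70, 19.7 points (8.96 to 30) more than in Pitx3eGFP/wt. Ebf2 was on in 67.6% (60.2 to 74.4), 9.32 points (−1.32 to 19.8) more. Ebf3 was on in 73.2% (66.1 to 79.5), 18.5 points (7.90 to 28.7) more. Ebf1 had the clearest difference in level, from a mean of 65.6 to 134.4 RPKM and a median of 15.9 to 78 RPKM, and with 2.03-fold was the member past 2-fold, beside 9.02% of 14527 entries. Ebf2 was 1.20-fold and Ebf3 1.44-fold higher in mean level. All 3 members were on in 86 cells, 48% (40.5 to 55.6), 17.1 points (6.26 to 27.3) above Pitx3eGFP/wt, and 9.50% of cells were on for none. The part of the higher Ebf1 and Ebf3 shares in these 17.1 points was not tested. The 3 Pitx3eGFP/eGFP plates held Ebf1 in 59.1% to 74.3%, Ebf2 in 63.6% to 69% and Ebf3 in 71.3% to 75.7% of cells, all above the 51.8%, 58.3% and 54.7% of Pitx3eGFP/wt cells.

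The difference at E13.5 was also taken within cells with and without Th. Th itself differed between genotypes, so cells sorted by it need not be comparable, and a change in the members cannot be told apart from a change in which cells pass the Th level. Among cells over 150 for Th, 63.6% of 77 Pitx3eGFP/eGFP and 41.1% of 90 Pitx3eGFP/wt cells were on for Ebf1, a difference of 22.5 points (7.33 to 36.3), and Ebf2 and Ebf3 differed by 13.8 points (−1.36 to 28.1) and 24.6 points (9.55 to 38). Among cells not over 150 for Th, the differences were 6.02 points (−7.99 to 21.5) for Ebf1, −10.2 points (−21.9 to 4.16) for Ebf2 and 4.06 points (−10.1 to 19.7) for Ebf3. In the Nxph4 class, with 59 and 38 cells, Ebf1 differed by 11.1 points (−4.92 to 28.3), Ebf2 by −2.28 points (−13.8 to 11.7) and Ebf3 by 10.9 points (−3.45 to 27.1). In cells without a marker Ebf1 differed by 19.5 points (4.38 to 33.7), Ebf2 by 7.52 points (−7.53 to 22.3) and Ebf3 by 20.4 points (5.28 to 34.5). The Pitx3eGFP/eGFP cells of this age were on plates of their own with added spike-in RNA and at a lower depth, so genotype and plate cannot be told apart, although thinning to 100000 reads gave 17.2, 9.32 and 20.8 points.

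**Figure D5:**
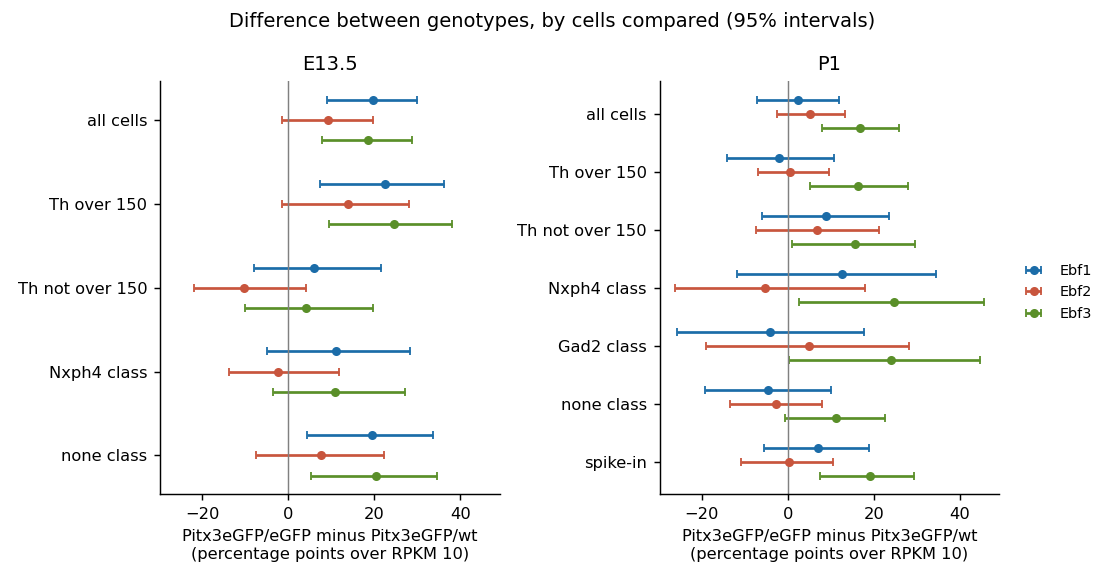
Points give the difference in the share of cells over an RPKM of 10, Pitx3eGFP/eGFP minus Pitx3eGFP/wt, in percentage points with 95% Newcombe intervals, at E13.5 and P1, by the cells compared (all cells, cells by Th, marker classes, and at P1 Pitx3eGFP/wt cells with spike-in alone). At P1 the Ebf3 points lie between 11.2 and 24.6 in all sets shown, whereas those of Ebf1 and Ebf2 lie on both sides of 0.

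At P1 Ebf3 was the member whose interval over all cells lay above 0 over an RPKM of 10. It was on in 38.4% (30.8 to 46.4) of the 77 and 82 Pitx3eGFP/eGFP cells of both plates, 16.8 points (7.87 to 25.8) more than in Pitx3eGFP/wt, with mean levels of 14.7 and 7.12 RPKM and a ratio of 1.94. Ebf1 was on in 42.1% (34.4 to 50.2), a difference of 2.36 points (−7.14 to 12), and Ebf2 in 22.6% (16.4 to 29.9), a difference of 5.17 points (−2.49 to 13.4). Over an RPKM of 1 the Ebf2 difference was 9.26 points (0.752 to 18.1), also above 0. None of the 3 members was past 2-fold, beside 7.01% of 15853 entries. Ebf3 was higher among cells over 150 for Th by 16.4 points (5.16 to 28), among the others by 15.7 points (1.13 to 29.7), and in the Nxph4 and Gad2 classes by 24.6 points (2.68 to 45.5) and 24.1 points (0.274 to 44.6). Against the Pitx3eGFP/wt cells with spike-in alone, of which 19.1% of 94 were on, the difference was 19.2 points (7.61 to 29.5). It rested on 1 of the 2 plates, since Ebf3 was on in 50.6% of the 77 cells of plate P1H_1 and 26.8% of the 82 cells of P1H_2, and without P1H_1 the difference was 5.27 points (−4.66 to 16.7), without P1H_2 29.1 points (16.9 to 40.9). Over an RPKM of 50 it was 2.32 points. The Pitx3eGFP/eGFP cells of P1 were also on plates of their own, so genotype and plate cannot be told apart at this age either. In the Slc6a3 class, 1 of 16 Pitx3eGFP/eGFP cells, 6.25%, was on for Ebf1 beside 30 on and 77 off among Pitx3eGFP/wt cells, a difference of −21.8 points (−32.3 to 1.57). In the same class Ebf2 was on in 18.75% and 4.67% of cells, a difference of 14.1 points (0.605 to 38.5), also above 0. Cells with all 3 members were 7, or 4.4% (1.79 to 8.86), beside 1.12% in Pitx3eGFP/wt, and the part of the higher Ebf3 share in this was not tested.

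Markers of other cell types were few in the cells that carried a member. Of the Pitx3eGFP/wt cells on for Ebf1, which is also known from vessel-associated cells, 0.677% had at least 3 of the pericyte markers Rgs5, Vtn, Pdgfrb and Kcnj8 on, and 0.452% had the 3 endothelial markers on. There were 4 and 2 such cells among 1146, of which 3 and 2 were on for Ebf1, 0 for Ebf2 and 0 for Ebf3. At least 3 oligodendrocyte markers were on in 45 kept Pitx3eGFP/wt cells, of which 46.7% were on for Ebf1, 13.3% for Ebf2 and 8.89% for Ebf3. Of all Pitx3eGFP/wt cells on for Ebf1 these made up 4.74%. The 1101 other Pitx3eGFP/wt cells were on for Ebf1 in 38.3%, for Ebf2 in 31.15% and for Ebf3 in 32.3%. These others were of all ages, whereas 9 of the 45 came from E18.5, 14 from P1 and 18 from P7, where Ebf2 and Ebf3 were least often on. Age and the oligodendrocyte markers thus cannot be told apart in this comparison. At P7 18 of the 86 kept cells, 20.9%, had these markers, beside 0% to 5.20% at the other ages of Pitx3eGFP/wt. Without them the P7 shares were 45.6% (33.4 to 58.1) for Ebf1, 22.1% (12.9 to 33.8) for Ebf2 and 25% (15.3 to 37) for Ebf3. In each group 0 cells had at least 3 markers of cycling cells, of serotonin neurons or of motor and red nucleus neurons on. By the same rule 0 P90 cells had the 3 GABA markers on, although 57 P90 cells were in the Gad2 class. A low count by this rule thus does not show that a cell type was absent.

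Genes that act with the family were described by a list of Ebf4, the transcription factors Zfp423 and Zfp521, of which Zfp423 is known to bind Early B-cell factors, the E proteins Tcf3, Tcf4 and Tcf12, and Cnot3 and Smarca4, which encode subunits of a deadenylase and of a chromatin remodeller. From E13.5 to P90 0 of the 8 were at least 2-fold higher and 5 at least 2-fold lower, Zfp423, Zfp521, Tcf3, Tcf12 and Smarca4, with a median log2 ratio of −1.29 beside −0.07 over all entries, of which 40.8% were past 2-fold in either direction. Tcf12 went from a mean of 228.5 to 24.3 RPKM and Zfp423 from 24.1 to 10.2 RPKM, while Tcf4 was at 68.8 and 83.1 RPKM. Ebf4, the remaining family member, was on in between 3.69% of cells at P90 and 20.9% at P7 with 5.04% at E13.5. In the early block 3 of the 8, Zfp423, Tcf4 and Tcf12, were at least 2-fold higher in the Nxph4 than in the Slc6a3 class and 0 lower, beside 25.2% of all entries past 2-fold. Tcf4 was at 202.2 beside 50.9 RPKM and Tcf12 at 343.8 beside 113.1 RPKM. In the early Gad2 against the Slc6a3 class, of 7 measured, Tcf12 was 2.17-fold higher and Zfp521 2.26-fold lower, beside 32.2% of all entries. At P90 Tcf4 was at least 2-fold higher in both classes than in the Slc6a3 class, and Ebf4 was 2.17-fold lower in the Nxph4 and 2.93-fold lower in the Gad2 class, beside 16.1% and 17.7%. In neither comparison of genotypes was any of the 8 past 2-fold, beside 9.02% of all entries at E13.5 and 7.01% at P1.

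Among 9 basic helix-loop-helix genes of neuronal differentiation, 7 had a mean of at least 1 RPKM at E13.5 or P90, of which 0 were at least 2-fold higher and 3, Neurog2, Nhlh1 and Nhlh2, at least 2-fold lower at P90, beside 40.8% of all entries past 2-fold in either direction. Nhlh2, which is used by young neurons, went from 105.3 to 21.1 RPKM. In the early block Neurod1 was at 46.5 RPKM in the Nxph4 class beside 0.0494 RPKM in the Slc6a3 class, and Neurog2 at 7.08 beside 0.845 RPKM. Of the 7 measured there, 6 were at least 2-fold higher and 0 lower, beside 25.2% of all entries. Neurod6 went the other way in other comparisons with the Slc6a3 class. Its mean was 0 RPKM in the early Gad2 class beside 12.2 RPKM in the Slc6a3 class, and 0.47 RPKM in the perinatal Nxph4 class beside 39.3 RPKM. Of the 7 that reached a mean of 1 RPKM at E13.5 and the 5 at P1, 0 were past 2-fold between genotypes, beside 9.02% and 7.01% of all entries.

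Genes known as targets of Ebf1 in B cells were mostly near 0 in these cells. Of 10 such genes, 1 had a mean of at least 1 RPKM at E13.5 or P90. This was Pax5, a midbrain and B-cell transcription factor, with 6.38 and 0.287 RPKM, beside 40.8% of all entries past 2-fold. Pax5 was 20.9 RPKM in Pitx3eGFP/eGFP cells at E13.5, 2.97-fold higher, beside 9.02% of all entries past 2-fold. At P1 Pax5 differed the other way, with 24.1 RPKM in Pitx3eGFP/wt and 15.9 RPKM in Pitx3eGFP/eGFP cells. No more than 12.8% of cells of a group were on for Pax5. Cd79a, Cd79b, Igll1, Vpreb1, Vpreb2, Blk, Pou2af1 and Cd22 were each on in at most 1.26% of cells of any group, although the mean of Cd79b at P1 was 4.85 RPKM in Pitx3eGFP/eGFP beside 0.365 RPKM in Pitx3eGFP/wt cells. This was a 4.29-fold difference, beside 7.01% of all entries past 2-fold. Of 6 olfactory neuron genes, Adcy3 and Gnal, which encode an adenylyl cyclase and a G protein also used in dopamine-receiving neurons, were on in many cells. Adcy3 was 8.90-fold higher at P90 than at E13.5, at 33.9 beside 2.92 RPKM, opposite in direction to the members. Of the 3 olfactory genes measured over this span, Adcy3 and Cnga4 were at least 2-fold higher and 0 lower, beside 40.8% of all entries past 2-fold. Between genotypes at E13.5 Adcy3 was past 2-fold, at 8.70 RPKM in Pitx3eGFP/eGFP beside 2.92 RPKM in Pitx3eGFP/wt cells, beside 9.02% of all entries, and at P1 0 of the 2 measured were. Omp, Cnga2, Cnga4 and Stoml3 were on in at most 4% of cells of any group.

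The entries most like each member were sought over the 14 combinations of block and marker class with at least 10 cells, by Pearson's r of the mean log2(RPKM + 1) over 13463 entries. The groups share libraries and plates, so these are descriptions. Ebf2 was the 4th most like Ebf3, with r of 0.84, behind Gria3 (0.89), Thsd7a (0.85) and Ndst3 (0.85). Ebf1 and Ebf2 had an r of 0.58 and Ebf1 and Ebf3 of 0.18. The most like Ebf1 were Gm15612, Zfp513, Zfp687, Gm12158 and Podxl2, with r between 0.82 and 0.84, of which Gm12158 is the antisense gene within Ebf1. The most like Ebf2 were mt-Tp, Gm2694, Skida1, Pard3 and Plod2, with r between 0.89 and 0.92. The least like were Chrna4 for Ebf1, at −0.88, Epha10 for Ebf2, at −0.95, and Glra2 for Ebf3, at −0.88. The same was done over single cells of an age. At E13.5, among 9588 entries, the member most like Ebf1 in Spearman's rho was Ebf2 (0.58), that most like Ebf3 was Ebf2 (0.52), and Ebf2 had Nova1 (0.62) before Ebf1. At P90, among 10856 entries, no member was among the 5 most like another. The most like Ebf1 was then Medag (0.37), that of Ebf2 Ntng1 (0.53), with Nefl the 3rd at both E13.5 (0.56) and P90 (0.41), and that of Ebf3 Slc32a1 (0.45), the vesicular GABA transporter, with Gad2 (0.36) 4th.

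The promoters of the members were searched for the sequence that the family binds. RefSeq promoters of build GRCm38.p6, from 250 bases before to 50 after the start, were at hand for 2 of the 3 members, with 2 for Ebf1 and 1 for Ebf3. The core CCCNNGGG, which reads the same on both strands, occurred at 1 place in the Ebf3 promoter and not in those of Ebf1. The fuller palindrome, the core with a T before and an A after, lay in none of the 3 promoters and in 0.904% of 32851 promoters of all genes. The core was found in 13.7% of all promoters and in 25.6% of the 9690 with a GC content of at least 60%, and the GC content of the Ebf3 promoter was 77%. A match of these letters describes the sequence and is no evidence of binding.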

How the data were processed

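The authors deposited, for each single cell, a table with a read count and an RPKM value for 39468 gene entries. Reads of 43 bases had been aligned by the authors with STAR against mm10, to which eGFP and the spike-ins were added. RPKM was computed by the authors from uniquely placed reads with rpkmforgenes on Ensembl models. The deposited count values were not normalized, and the deposited RPKM values are relative to the length of the gene model and the depth of that cell. Reads on entries without a symbol were 0.211%, and 0 columns belonged to no sample.

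A cell was kept if it held more than 100000 reads and at least 15% (3.4% at P90) of the entries that had a read in any cell. Clusters (leidenalg 0.10.2) in which at least 3 oligodendrocyte markers were each on in most cells were left out, and no doublet caller was run. Thinning drew 100000 reads per cell. Ratios of mean RPKM used a pseudocount of 1, over entries whose mean reached 1 in one group or the other. Intervals were computed with statsmodels 0.14.6 and scipy 1.17.1 and checked on simulated data. Labels name no animal, so each stage and genotype was 1 sample and no test was run. Coding sequences were compared with biopython 1.88.

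The members and lists were chosen with earlier results of these data known. The genes named beyond the members are the lists, the gate genes Nxph4, Gad2, Slc6a3 and Th, and for each member the 5 entries with the highest and 3 with the lowest correlation over marker classes of at least 10 cells, and the 5 highest over cells at E13.5 and at P90. Some genes of these lists are not reported here. Vip and Aldh1a1 were added after values were seen. Alternatives were thresholds of RPKM 1 and 50, marker thresholds of 50 and 300, a pseudocount of 0.1, other limits on cells, thinning, and leaving out plates.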

Additional observations from a re-analysis of the deposited data

Results flagged for a closer look

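Of the 1699 cells, 50 did not pass the limits on reads and genes and enter no comparison above. Ebf1 was over an RPKM of 10 in 28% of them, Ebf2 in 26% and Ebf3 in 16%, above the 6% that a count of 0 among 50 cells allows. The exact 95% intervals were 16.2 to 42.5%, 14.6 to 40.3% and 7.17 to 29.1%, and these cells are of mixed age and genotype. The 6% is a limit on counting and no background. In the oligodendrocyte-like cells the shares were 7.27%, 3.64% and 0.606%. At 100000 reads an RPKM of 10 stands for 2.24 reads of Ebf1, 3.10 of Ebf2 and 4.02 of Ebf3. Of the 1699 cells, 1674 passed the limit on reads, so some of the 50 failed on genes alone. What put these cells over the level was not tested.

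Over all cells Ebf1 had ratios of opposite sign between genotypes at the 2 ages. Its log2 ratio of mean RPKM, Pitx3eGFP/eGFP over Pitx3eGFP/wt, was 1.02 at E13.5 and −0.30 at P1. Against the P1 Pitx3eGFP/wt cells with spike-in alone the P1 ratio was 0.09, so its sign depended on the cells compared. The difference between the ages was not tested, since each group is 1 sample. In share of cells Ebf1 was higher in Pitx3eGFP/eGFP at both ages, by 19.7 and 2.36 points.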

How the results depend on the processing

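Under the alternatives, 353 values stayed and 28 moved, 14 of the latter among the main differences. Of those that stayed, 27 came from summing over entries, which could move nothing because each gene compared has 1 entry. The filter on the mean likewise left the ratios of the members as they were. A difference in share was judged by the interval of the reported value, a ratio by its side of 2-fold and a percent of entries by a factor of 1.5. At a threshold of RPKM 50 the differences were 40.8 points for Ebf2 from E13.5 to P90, 5.97 for Ebf2 between the Nxph4 and Slc6a3 classes at P90, 0.957 for Ebf3 between the Gad2 and Slc6a3 classes at P90, 2.32 for Ebf3 between genotypes at P1, and 22.7 at E13.5 and 3.73 at P90 for Ebf3 with against without Ebf2. At RPKM 50, too, Ebf2 between the Gad2 and Slc6a3 classes at P90 was 23.1 points, and Ebf3 among early cells was 20.2 between the Nxph4 and Slc6a3 and 36.1 between the Gad2 and Slc6a3 classes. With classes set at a marker RPKM of 300, the early Gad2 and Slc6a3 classes differed by 68.9 points for Ebf1 and 88.4 for Ebf2, up from 41.6 and 73.9. At a threshold of RPKM 1 the Ebf3 difference between genotypes at P1 was 28.8 points, without plate P1H_1 it was 5.27 and without P1H_2 29.1. Thinning gave 30.9 points for Ebf3 between the Gad2 and Slc6a3 classes and 6.71 for Ebf3 with against without Ebf2, both at P90. Among cells not over 150 for Th, a gene that itself differed between genotypes, the genotype differences at E13.5 were 6.02 for Ebf1, −10.2 for Ebf2, opposite in sign to that over all cells, and 4.06 for Ebf3. Apart from the thinning, where fewer reads stand for the threshold, the causes were not tested. Other limits on cells and leaving out any P90 plate moved none of the differences computed under them outside the interval of the reported value. Nor did leaving out 75 cells with at least 3 glial, microglial, endothelial or pericyte markers, an alternative chosen after seeing the data. The percent of entries past 2-fold depended on the filter and the pseudocount. From E13.5 to P90 it was 16 with no filter, between genotypes at E13.5 it was 3.32 with no filter, 4.96 with a mean of at least 5 and 15.7 with a pseudocount of 0.1, and at P1 2.82, 4.22 and 13.3. The ratio of Ebf3 between genotypes at P1, 0.95 on the log2 scale, was 1.04 with a pseudocount of 0.1 and 1.02 from summed reads scaled for depth, which is past 2-fold. No paired analysis was possible because no label ties cells of different groups to a shared animal, litter or day.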
